A study of Drosophila melanogaster with 3 samples.

Results

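The genes described here encode the enzymes that make and break down cyclic nucleotides in the heads of adult Drosophila melanogaster: 4 adenylyl cyclases (rut, Ac76E, Ac13E and Ac3) and 6 cyclic nucleotide phosphodiesterases (dnc, Pde1c, Pde6, Pde8, Pde9 and Pde11). They were chosen by name, and every array probe set whose single gene symbol was one of these names was taken. Of the 10 genes, 9 had such a probe set, with 16 probe sets among them, out of 11981 named genes in all. Ac3 was not analysed here. RNA came from whole heads, and each of 3 genotypes was measured on 1 array. All flies, the control included, carried the driver p247-Gal4, which acts in the mushroom bodies, the brain centres for olfactory memory, and the temperature-sensitive Gal80 repressor tub-gal80[ts]. The control carried these alone (the labels write its genotype with /+), PKA-DN flies added UAS-PKA-DN, and PKA-CA flies added UAS-PKA-CA. Flies grew at 18 °C and as adults were then held at 32 °C for 12 to 16 h, which frees Gal4 from the repressor, and their age is given as 4 to 6 days. UAS-PKA-DN is a dominant-negative protein kinase A (PKA), taken here to lower kinase activity, and UAS-PKA-CA is a constitutively active one, taken to raise it. The design text names these effects in the reverse order, and kinase activity was not measured.

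Adenylyl cyclases turn ATP into cyclic AMP (cAMP), mostly on orders from G protein-coupled receptors, and cAMP activates PKA by releasing its catalytic subunits. Phosphodiesterases end the signal by hydrolysing cAMP, cyclic GMP (cGMP) or both. In the mushroom bodies this pathway is known from flies with mutations in rutabaga (rut) and dunce (dnc), which learn odours poorly, and the question put to these arrays was which transcripts follow PKA activity. Mushroom body neurons are few among all cells of a head, the same enzymes are used elsewhere in it, and in whole-head RNA fewer cells of a type and less RNA per cell cannot be told apart.

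Each value below is the deposited signal of a probe set in array units. With 1 array per genotype no value has a replicate error, and no test was possible. A probe set was taken as above background when it exceeded the highest of 99 negative-control probe sets, whose signals were 77.0 (control), 77.8 (PKA-DN) and 70.9 (PKA-CA). Of the 16 probe sets, 13 exceeded it on all 3 arrays and 3 were below it on every array. Signals of different probe sets were not set against each other, because probes differ in how brightly they bind. The main value of a gene is that of its brightest probe set, the one with the highest mean log2 signal. Genes were counted as past the lower threshold where a log2 ratio was 0.32 or more in size, which is 25% higher or 20% lower.

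Of the 3 cyclases measured, Ac76E and Ac13E had their highest signal in PKA-CA heads, and rut was nearly level. Ac76E, a cyclase with a single probe set, had a signal of 648 in control, 596 in PKA-DN and 864 in PKA-CA heads. The PKA-CA value stood apart from the other two, at a log2 ratio of 0.42 over control (1.33-fold) and 0.54 over PKA-DN (1.45-fold), while PKA-DN was at -0.12 over control. Ac13E had 1184, 1112 and 1457 in the same order, again with PKA-CA highest and the other arrays close together. Its log2 ratios over control were -0.09 for PKA-DN and 0.30 for PKA-CA, with 0.39 between the PKA arrays. A further Ac13E probe set read 10.7, 6.37 and 24.0, below the negative controls throughout, and gives no measure of the gene.

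The calcium- and calmodulin-responsive cyclase rut, which acts in mushroom body neurons during odour learning, had 510 in the control against 520 in PKA-DN heads and 538 in PKA-CA heads. The highest value was 1.06 times the lowest. Its log2 ratios over control were 0.03 (PKA-DN) and 0.08 (PKA-CA), and 89.4% and 72.3% of the 5991 genes compared lay at least as far from 0. The genes compared are those in the upper 50% by mean log2 signal.

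**Figure D1:**
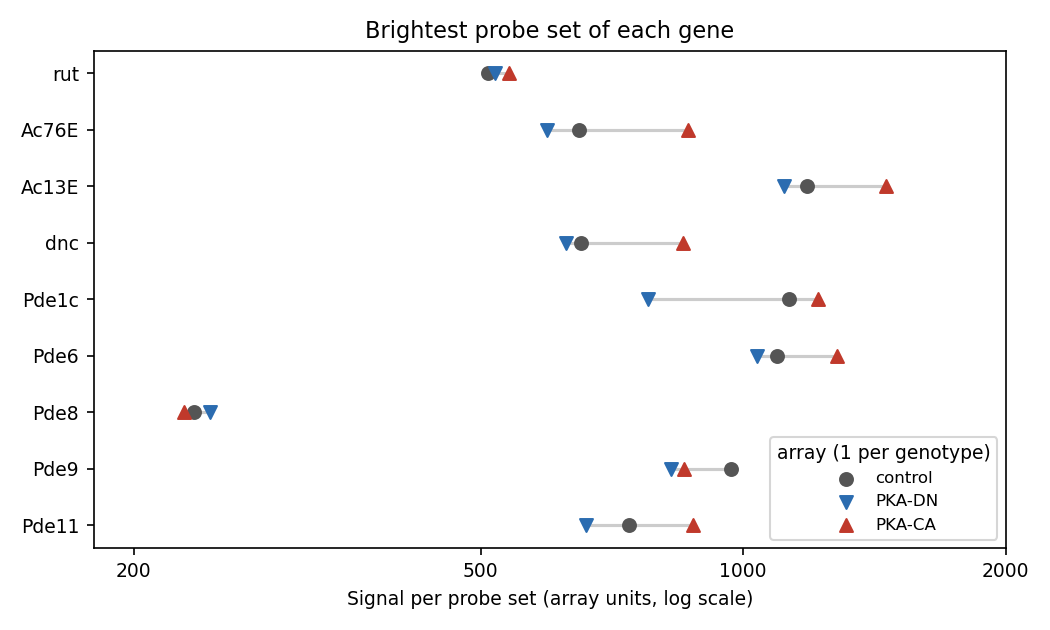
Signal of the brightest probe set of each gene (horizontal axis, array units, log scale) for each genotype, with 1 point per array and a grey line from the lowest to the highest. Ac76E, Ac13E, dnc, Pde6 and Pde11 have the PKA-CA point apart on the right, Pde1c has the PKA-DN point apart on the left (777 against 1129 and 1217), and rut and Pde8 have all 3 points close together.

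Among the phosphodiesterases, dnc, Pde6 and Pde11 resembled Ac76E and Ac13E in having PKA-CA as the highest array and PKA-DN as the lowest. The gene dnc, which encodes a cAMP-specific phosphodiesterase, had 652 in the control, 627 in PKA-DN heads and 853 in PKA-CA heads. Control and PKA-DN were close (log2 ratio -0.06), and PKA-CA was above both, at 0.39 over control and 0.45 over PKA-DN. RefSeq lists 17 proteins for dnc, and its probe set carries the suffix that marks probes shared by alternative transcripts of 1 gene, so that single transcripts could not be read separately. Pde6, which encodes a cGMP-specific enzyme in flies, had 1094, 1036 and 1280 in the order control, PKA-DN, PKA-CA. The spread was narrower than for dnc, with log2 ratios over control of -0.08 and 0.23. Pde11, whose enzyme accepts both nucleotides, had 739, 660 and 876, with ratios of -0.16 and 0.25 over control and 0.41 between the PKA arrays. A dim Pde11 probe set, at 36.9, 36.2 and 28.9, was below the negative controls.

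Pde1c encodes the calcium- and calmodulin-activated phosphodiesterase, which hydrolyses both cAMP and cGMP, and it was the gene with the widest range. Its brightest probe set had 1129 in the control, 777 with PKA-DN and 1217 with PKA-CA. Here PKA-DN was the array that stood apart, at a log2 ratio of -0.54 over control and 0.65 between PKA-CA and PKA-DN (1.57-fold), and 2.92% of all genes compared had a ratio as far from 0 between the PKA arrays. The next probe set had 756, 511 and 653, so PKA-DN was again lowest, at -0.56, but PKA-CA was below the control, at -0.21 against 0.11 for the brightest. A further probe set, barely above the negative controls, had the opposite order with PKA-DN highest, at 85.3, 124 and 107 (0.54 and 0.32 over control). The last was below them on every array, at 34.0, 5.59 and 25.3. The lower PKA-DN signal was therefore seen on both bright probe sets, whereas the side of the control on which PKA-CA lay differed between them. RefSeq lists 9 Pde1c proteins, and which transcripts each probe set detects is not given in the sources used here.

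Pde9 and Pde8 did not share the order of the other phosphodiesterases. Pde9, whose mammalian relative is specific for cGMP, had 969, 825 and 854 in the control, PKA-DN and PKA-CA on its brightest probe set, with the control highest and log2 ratios of -0.23 and -0.18. Its other probe sets, both above the negative controls, did not give the same picture. One had 330, 363 and 322, with ratios of 0.14 and -0.03, and the other had 153, 214 and 218, with ratios of 0.49 and 0.51 and the control lowest. No direction can be given for Pde9 from these arrays. Pde8, whose mammalian relatives are specific for cAMP, had 235, 245 and 228 on a probe set whose suffix marks probes that match several transcripts. The highest of these was 1.07 times the lowest, and the mean signal of 236 was just under the 254 at which genes entered the comparison with all genes.

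**Figure D2:**
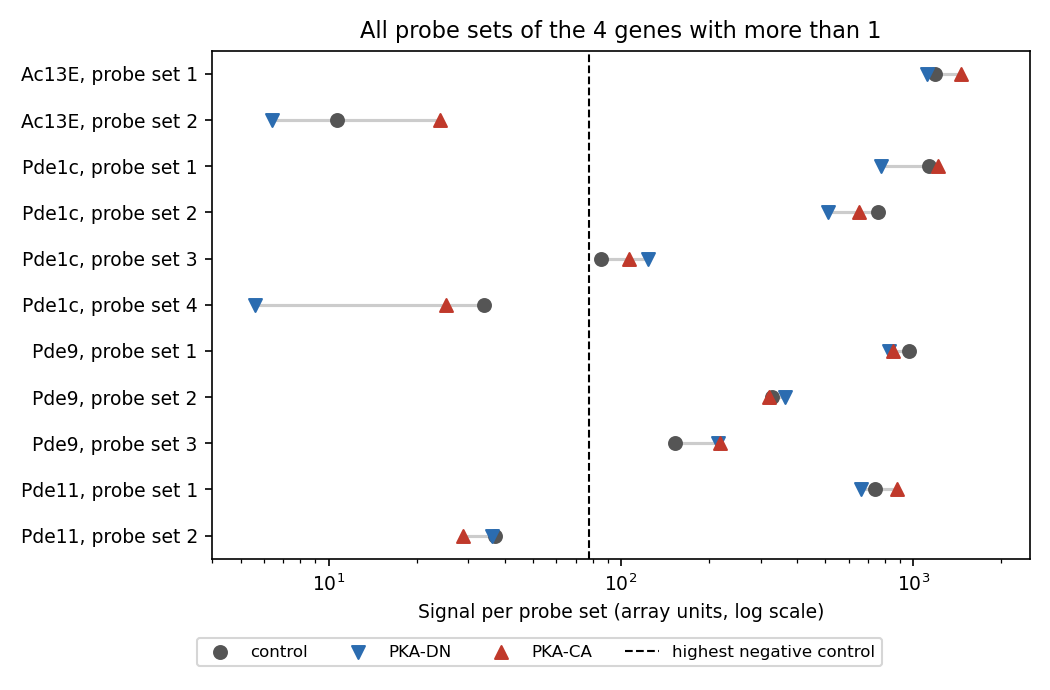
Signal of all 11 probe sets of Ac13E, Pde1c, Pde9 and Pde11, numbered from the brightest (horizontal axis, array units, log scale; 1 point per array; dashed line, 77.8, the highest negative-control signal on any array). PKA-DN is the lowest point of Pde1c probe sets 1 and 2 but the highest of probe set 3, and the 3 Pde9 probe sets each have a different order of arrays.

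For PKA-DN over control, 7 of the 9 genes were lower and 2 higher, with a median log2 ratio of -0.09. Among all 5991 genes compared, 51.7% were lower and the median was -0.01. A single gene, Pde1c, was lower by more than the 0.32 threshold, as were 7.66% of all genes, and none was higher by as much, against 6.13%. The cyclases had a median of -0.09 and the phosphodiesterases of -0.12. Besides Pde1c, then, the distances of the brightest probe sets from the control were no wider than is common on these arrays. Between 26.5% (Pde9) and 89.4% (rut) of all genes had a ratio at least as far from 0. The 4 other probe sets above the negative controls belong to Pde1c and Pde9. Of these 3 lay above 0 and 1 below it, with a median of 0.31, and 2 passed 0.32 upwards and 1 downwards.

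For PKA-CA over control, 7 genes lay above 0 and 2 below it. Their median was 0.23, against 49.5% higher and a median of -0.003 among all genes. Ac76E and dnc passed 0.32 upwards, as did 7.85% of all genes, and no gene of the set passed it downwards, against 9.66%. All 3 cyclases lay above the control, with a median of 0.30, and 4 of 6 phosphodiesterases did, with a median of 0.17. Of the 4 other probe sets above the negative controls, 2 lay above 0 and 2 below it, with a median of 0.14. When each array was centred on its own median over all probe sets, the median of all genes compared moved to 0.11. Then 5 of the 9 genes were past 0.32, but so were 17.0% of all genes, with 4.81% past it downwards. Ratios in the same range were common: 9.7% of all genes lay as far from 0 as Ac76E and 11.8% as far as dnc. Both comparisons use the same control array, so a high or low control signal of a gene moves both of its ratios together.

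PKA-CA over PKA-DN does not use the control array, but its log2 ratio is the difference of the 2 ratios over control and adds no separate measurement. It gave the widest differences among these genes, as it must for any gene whose control signal lies between the other 2. Here 8 of 9 genes were higher in PKA-CA and the exception was Pde8, at -0.10. The median was 0.39, against 0.001 for all genes, of which 50.2% were higher. Ac76E, Ac13E, dnc, Pde1c and Pde11 passed 0.32 upwards, as did 9.7% of all genes, and none passed it downwards, against 9.68%. Pde1c was also at least 1.5-fold higher, as were 2.22% of all genes. With the arrays centred, 16.3% of all genes passed 0.32 upwards and 5.39% downwards, and 6 of the 9 genes passed it upwards. The median of the 9 genes kept its sign in each of the 3 comparisons under centring, quantile normalization and cyclic loess. On the 4 other probe sets above the negative controls, however, 2 lay above 0 and 2 below it, and their median was -0.07.

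**Figure D3:**
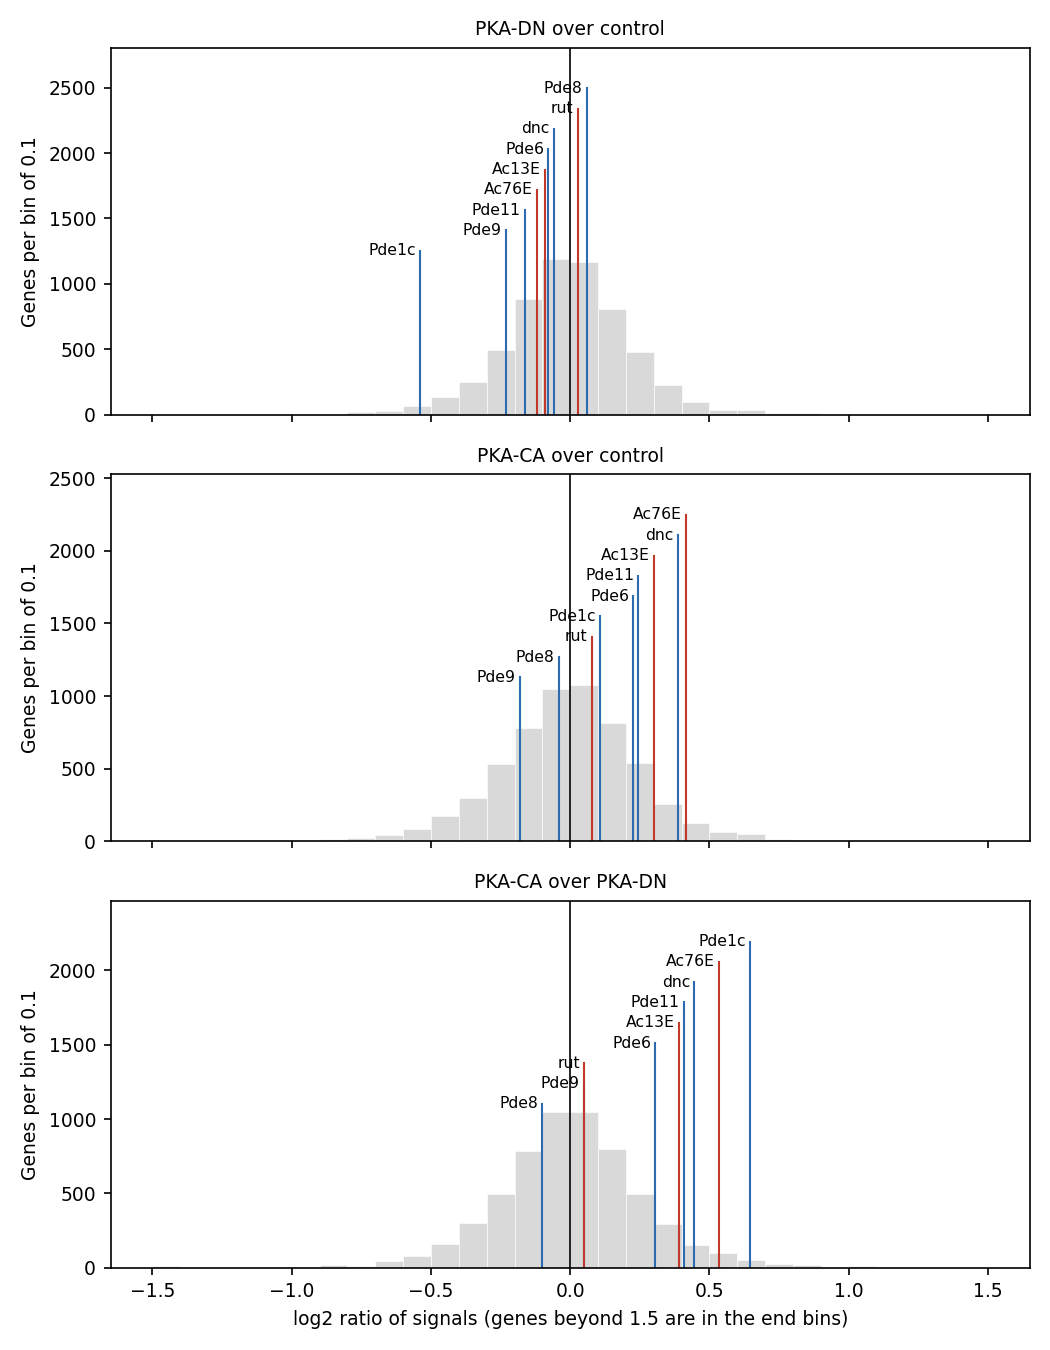
Log2 ratio of each cyclase (red lines) and phosphodiesterase (blue lines) over the distribution of 5991 genes (grey bars, genes per bin of 0.1) for the 3 comparisons; line height has no meaning. The lines lie mostly left of 0 for PKA-DN over control (7 of 9) and right of 0 in the comparisons of PKA-CA with control (7 of 9) and with PKA-DN (8 of 9), and the line farthest from 0 is Pde1c in the first (-0.54) and last (0.65) panels and Ac76E in the middle one (0.42).

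The order of the 3 arrays was the same for 6 of the 9 genes: PKA-DN lowest, control between, and PKA-CA highest. These were Ac76E, Ac13E, dnc, Pde1c, Pde6 and Pde11. Among all genes compared 19.1% had this order, and the shares of the other orders ran from 14% to 17.9%. For dnc, Ac13E, Ac76E and Pde6 the step from PKA-DN to control was small and the step from control to PKA-CA larger, whereas for Pde1c most of the range lay between PKA-DN and control. Pde1c had the order on its brightest probe set alone. On the next the control was highest, and on the one barely above the negative controls PKA-DN was. With the log2 signals of every probe set averaged, the dim ones too, 4 genes had the order, with Pde1c and Pde11 leaving it.

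These genes are long, and 41.6% of long genes as a class had this order on these arrays, against 19.1% of all genes. By RefSeq the 9 genes span 23.3 kb (Pde8) to 167 kb (dnc), with a median of 44.4 kb, while the median over all genes compared is 3.07 kb. Of the genes compared, 488 were at least as long as Pde8, 8 of the 9 genes described here among them. Of those long genes 203 had PKA-DN lowest and PKA-CA highest, 78.1% lay above 0 for PKA-CA over PKA-DN, and 29.1% passed 0.32 there. Their median log2 ratios over control were -0.09 (PKA-DN) and 0.11 (PKA-CA), with 0.18 between the PKA arrays, while those of shorter genes were -0.002, -0.01 and -0.01. The median of -0.09 for the 9 genes in PKA-DN is that of long genes in general, and their medians in the comparisons with PKA-CA are further from 0 than those of long genes. The long genes start at 23.3 kb and were not matched in length to the 9 genes, so these medians do not compare genes of like length. The ratio of 3' to 5' signal, a measure of RNA integrity and labelling, was 1.70, 2.05 and 2.0 for GAPDH, 1.79, 2.29 and 1.70 for actin and 2.51, 2.33 and 3.01 for eIF-4a, each in the order control, PKA-DN, PKA-CA. The part of gene length and RNA integrity in the ratios was not tested.

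The rest of the pathway was read from lists of genes upstream and downstream of the enzymes, over genes above the negative controls on all arrays. Of all 7458 genes above them, 9.4% passed 0.32 downwards and 7.67% upwards in PKA-DN over control, and 11.7% downwards and 8.86% upwards in PKA-CA over control. Of 6 other adenylyl cyclase genes, only Ac78C exceeded the negative controls, with 199 in the control, 242 in PKA-DN and 280 in PKA-CA (log2 ratios 0.29 and 0.49), an order in which both PKA arrays were above the control. The ACX cyclases did not exceed them on all arrays, with the highest signal, 85.8, belonging to ACXD in the control. G protein subunit and cyclase regulator genes were nearly level. Of 7 such genes none passed 0.32 in either comparison with the control, and their medians were 0.01 and 0.05. Galphas, the subunit that stimulates cyclases, had 3549, 3716 and 3815.

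Among 9 genes for receptors that act on cyclases, 8 were lower in PKA-DN than in the control, as were 51.8% of all genes above the negative controls. Of the 8, 2 passed 0.32 downwards, against the 9.4% above. Some of the ratios were near 0. The 1 receptor gene higher in PKA-DN became 2 with centring or cyclic loess and 3 under quantile normalization. The median was -0.08 for PKA-DN and 0.13 for PKA-CA. The D2-type dopamine receptor gene Dop2R had 471, 357 and 520, so PKA-DN was lowest, and the octopamine receptor gene Octbeta1R had 699, 543 and 718, in the same order. Octbeta3R was lowest in PKA-CA, at 179, 170 and 140, and was the 1 receptor gene past 0.32 downwards there. With centring, quantile normalization or cyclic loess no receptor gene was. The serotonin receptor gene 5-HT7 was highest in PKA-CA, at 112, 129 and 195, a log2 ratio of 0.79 over control. Its control signal was not far above the highest negative control of that array, 77.0.

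The genes for cAMP effectors and their partners included PKA subunits, anchors and cyclic nucleotide-gated channels. The PKA subunits read were Pka-C3 and Pka-R1, as Pka-C1, Pka-C2 and Pka-R2 had no probe set with that single symbol. Of the 12 effector genes, 9 were lower in PKA-DN, where 51.8% of all genes above the negative controls were. Of the 9, 4 passed 0.32 downwards, against the same 9.4%. In PKA-CA 5 of the 12 lay above the control and 7 below it. The median was -0.03, which turned to 0.09 when the arrays were centred. There 3 passed 0.32 upwards, Pka-R1 (log2 ratio 0.40), spoon (0.36) and Epac (0.34), and 3 downwards, CrebB (-0.45), Akap200 (-0.43) and nej (-0.33). The coactivator gene nej had 575, 390 and 459, the channel gene Cngl 152, 106 and 147, and the anchor gene rg 1203, 854 and 1220, each with PKA-DN lowest. CrebB, a transcription factor gene that PKA signalling acts on, was lowest in PKA-CA, at 163, 158 and 120. In the cGMP branch 4 genes were above the negative controls, with medians of 0.04 and -0.02, the latter 0.09 with centring. The nitric oxide synthase gene Nos had 297, 335 and 449, highest in PKA-CA, and the cGMP-dependent kinase gene Pkg21D had 141, 94.4 and 106, highest in the control. The lowest signals of Pkg21D, Cngl and CrebB were not far above the negative controls, whose highest signal on any array was 77.8.

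**Figure D4:**
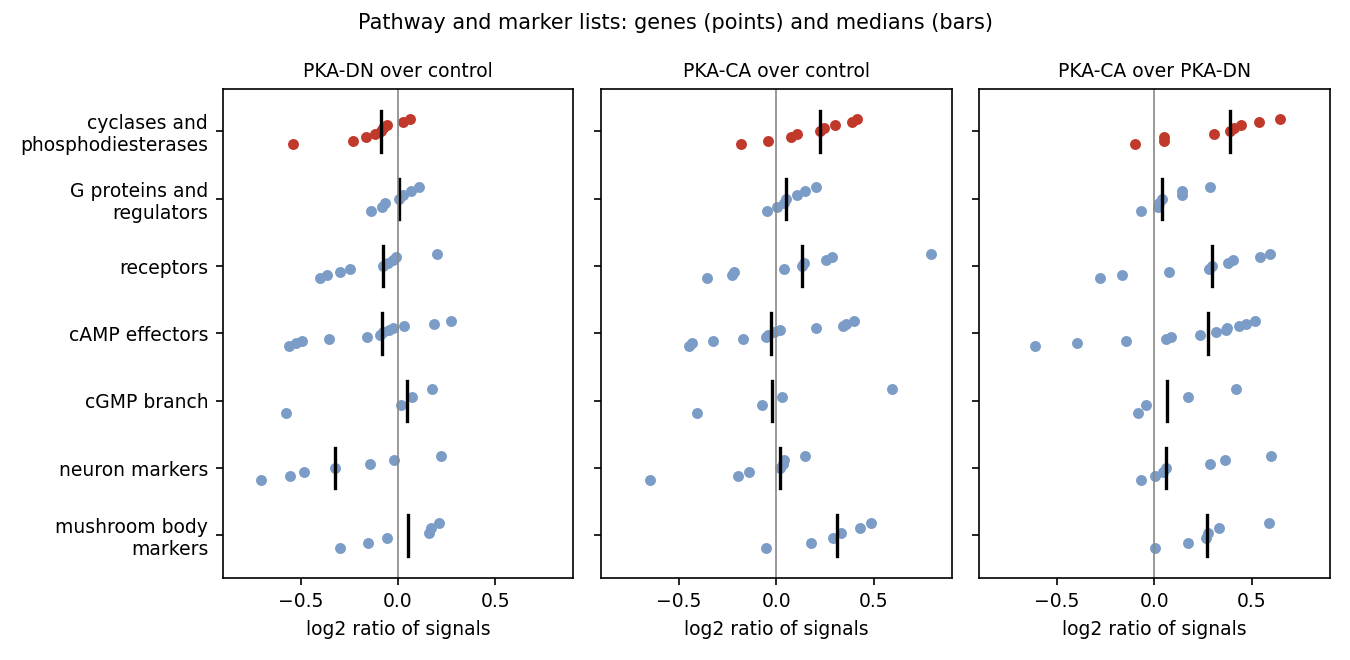
Log2 ratio of each gene (points; horizontal axis) and list median (black bars) for the cyclases and phosphodiesterases (red), for 4 pathway lists and for neuron and mushroom body markers (blue), in the 3 comparisons; vertical offsets within a list only separate points. In PKA-CA over PKA-DN the medians are 0.39 for the cyclases and phosphodiesterases, 0.30 for receptors, 0.27 for effectors and 0.04 for G proteins.

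Markers of the tissues in a head were present as the label of whole heads requires, such as the photoreceptor gene trp at 15510, 14587 and 15032. All 5 testis markers were below the highest negative control on every array. The 5 photoreceptor markers summed to 82628, 77959 and 73778 on the 3 arrays. On each PKA array 2 of them were above the control and 3 below it. Under quantile normalization 4 were above it in PKA-DN and 5 in PKA-CA. Of all genes above the negative controls, 51.8% were below and 48.2% above the control in PKA-DN, and 48.8% above it in PKA-CA. Of 7 neuron markers, 6 were below the control in PKA-DN, with a median of -0.33. Their summed signal was 13077, 12585 and 13105, and the pan-neuronal gene elav had 619, 421 and 637. In PKA-CA the neuron median was 0.02 over control and 0.06 over PKA-DN. The median over control was -0.001 under quantile normalization, 0.03 under cyclic loess and 0.13 with centring. Of 6 mushroom body markers, 3 were above the control in PKA-DN, with a median of 0.05, and 5 in PKA-CA, with a median of 0.31. The mushroom body markers summed to 5578, 5412 and 6899. All 3 muscle markers were above the control on both PKA arrays, with summed signals of 3018, 4631 and 5192. The 4 glial markers summed to 16581, 15171 and 14025, of which Gs2 made up most, at 11653, 10795 and 9336. Of the 4, 1 was above the control in PKA-DN and 2 in PKA-CA (repo and moody, with alrm and Gs2 below). The 5 fat body markers summed to 131762, 126484 and 105360. Of these Yp1, Yp2 and Yp3 were lower and Lsp2 and fit higher on both PKA arrays. The medians over all 5 were -0.26 (PKA-DN) and -0.46 (PKA-CA). With centring they were -0.23 and -0.34, and under cyclic loess -0.24 and -0.34. They became 0.0 and -0.04 under quantile normalization, which gives equal ranks the same value on every array. These genes have very bright signals, so that method draws their ratios towards 0. The part of tissue composition in the ratios of the cyclases and phosphodiesterases was not tested.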

How the data were processed

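Per the submitters' processing notes, the authors used MAS5 to make the deposited values, which are linear intensity with 1 signal for each of 18952 probe sets; the version and its parameters were not found in the labels. With the top and bottom 2% of probe sets removed, the mean was 500.01 on every array, as after scaling by the authors. Signals were used as deposited, on the log2 scale with no constant added. Negative controls were 99 probe sets of the array's AFFX-Dm class, after 1 with a signal above 1000 was left out. Of the probe sets, 13646 had a single symbol, and 13543 symbols were updated through gene identifiers of RefSeq assembly Release 6 plus ISO1 MT. The brightest probe set stood for a gene. Each group held 1 array, so no test was run. Ratios were counted at 0.32 (log2) and 1.5-fold, beside the same counts over the 5991 named genes whose mean log2 signal was in the upper 50%. All 10 genes of the set were looked up. From other pathway lists, those named passed 0.32 against the control, up to 4 a list by size; Galphas, ACXD, the other effectors and the markers named were chosen after values were seen. The genes and lists were chosen with earlier results of these data known. Gene length came from RefSeq and was known for 99.8% of the genes compared. Alternatives (limma 3.58.1, R 4.3.3) were median centring, quantile normalization, cyclic loess, averaging of probe sets and adding 64. Counting was tested on simulated data.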

Additional observations from a re-analysis of the deposited data

How the results depend on the processing

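Of 27 log2 ratios (9 genes, 3 comparisons), 21 kept their sign under all 6 alternatives. Part of this was fixed beforehand: adding 64 cannot change a sign, and averaging leaves the 5 genes with 1 probe set as they were. None of the 8 ratios that were 0.32 or more in size changed sign. The 6 that did so belonged to Pde9 (all comparisons), Pde8, Pde1c and Pde11 (PKA-CA over control). Averaging all probe sets takes in the 3 below the negative controls, and the sign changes of Pde1c and Pde11 arose only there. For PKA-CA over control the median of the 9 genes was 0.34 with arrays centred and 0.10 with all probe sets averaged. In counts of genes past 0.32, added after the data were seen, the 2 higher in PKA-CA than in the control became 5 with centring. The 1 lower in PKA-DN became 2 when all probe sets were averaged. The gene added was Ac13E, at -0.42, through its probe set below the negative controls. The count became 0 when those above the negative controls were averaged, since Pde1c was then at -0.19. The 5 higher in PKA-CA than in PKA-DN became 4 under each kind of averaging, as Pde11 was at 0.04 with all probe sets and Pde1c at 0.26 with those above the negative controls, and 6 with centring. Centring moved the share of all genes past 0.32 upwards and downwards to 17.0% and 4.81% for PKA-CA over control and to 16.3% and 5.39% for PKA-CA over PKA-DN. At 1.5-fold these shares became 3.02% and 1.03%, and 3.76% and 1.14%. The cause of these shifts was not tested. Quantile normalization, cyclic loess and the added 64 moved none of the medians by more than 0.1 on the log2 scale. No paired analysis was possible because each group has 1 array.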
